A study of Homo sapiens with 6 samples.

Results

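The 30 genes described here carry out or control the synthesis of cholesterol and fatty acids, and were chosen by name as targets of the sterol regulatory element-binding proteins (SREBPs). All 30 had 1 row each among the 27576 genes of the table, and all 30 passed the filter on low values. They were measured by RNA sequencing in Kasumi-1, an established human acute myeloid leukaemia cell line with the RUNX1-RUNX1T1 fusion. Cells treated with 10 ng/ml recombinant human interleukin-10 (IL-10) for 72 h (3 libraries) were compared with cells given 0.5% bovine serum albumin for 72 h (control, 3 libraries). The culture medium of both groups held 20% fetal bovine serum, and all libraries come from this 1 line. Values are normalised read counts, and the libraries held 20750115 to 24222897 recovered reads.

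As background, cells build cholesterol from acetyl-CoA through mevalonate, isoprenoids, squalene and lanosterol, and build fatty acids from acetyl-CoA through malonyl-CoA. The SREBPs are made as precursors in the endoplasmic reticulum membrane, where INSIG proteins hold them back when sterols are plentiful. When sterols run low they are carried to the Golgi by SCAP, cut, and sent to the nucleus, where they raise transcription of the synthesis genes together with factors such as NF-Y and Sp1. Cells in serum take up cholesterol from lipoproteins as well as making it.

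IL-10 replicate 2 stood apart from the other 5 libraries. The main principal component held 75.4% of the variance, with a loading of 0.84 for that library and -0.34 to 0.16 for the others. The defining genes of the line were present throughout, with KIT at 29296 to 54533 and RUNX1T1 at 3071 to 3878. Of 12 hepatocyte markers, all were above 0 in IL-10 replicate 2 (sum 467) and in control replicate 2 (sum 985). The other 4 libraries had sums of 5.34 to 9.79, with 8 or 9 of the 12 at 0. Same-numbered IL-10 and control libraries deviated together from their group means, so ratios within the 3 replicate pairs are given beside each result. Whether the replicates came from separate cultures is not in the labels. The p-values therefore reflect the spread among these libraries alone, which may be technical.

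The promoters were searched for the letters that the SREBPs and their partner factors are known to bind. RefSeq promoters (GRCh38.p14, 250 bases before to 50 after a start) were found for 27 of the 30 genes, all but FDFT1, SQLE and FASN, as 36 entries. Matches were sought on both strands, and matches of different motifs may overlap. The SRE core TCACNCCAC stood in the promoter of SREBF2 alone among these genes, against 1.13% of all 35116 promoters. The NF-Y box CCAAT stood in 25 of the 36 entries (69.4%), against 34.6% of all promoters. Counted by gene, it stood in at least 1 entry of 21 of the 27 genes, among them 13 of 15 sterol enzymes and 5 of 8 fatty acid genes. Some genes have more than 1 entry, and no share by gene was computed over all promoters. The GC box GGGCGG stood in 32 entries (88.9%), against 44.95% of all promoters and 56.3% of those of protein-coding genes. The E-box CACGTG stood in 4 entries (11.1%), against 7.26%. A match is a description of these letters and not a measured site.

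Upstream stretches of 250 bases are shown 5′ to 3′ on the gene's strand, ending just before the annotated start. SREBF2 is shown for its SRE core, in capitals (chr22:41832855-41833104, plus strand). HMGCS1 (chr5:43313413-43313662, minus strand), LSS (chr21:46228775-46229024, minus strand) and NSDHL (chrX:152830813-152831062, plus strand) are shown with NF-Y boxes in capitals on either strand. HMGCS1 and LSS are among the genes that differed most between replicates, and NSDHL has 5 boxes, of which a pair overlaps. CYP51A1 (chr7:92134478-92134727, minus strand) is the gene whose groups did not overlap. Its entry holds no CCAAT, and its GC box, on the opposite strand, is in capitals.
SREBF2: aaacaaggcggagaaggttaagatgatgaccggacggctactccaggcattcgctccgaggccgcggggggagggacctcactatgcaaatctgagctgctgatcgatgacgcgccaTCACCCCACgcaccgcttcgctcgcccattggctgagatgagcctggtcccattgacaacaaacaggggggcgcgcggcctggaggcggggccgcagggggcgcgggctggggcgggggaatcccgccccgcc
HMGCS1: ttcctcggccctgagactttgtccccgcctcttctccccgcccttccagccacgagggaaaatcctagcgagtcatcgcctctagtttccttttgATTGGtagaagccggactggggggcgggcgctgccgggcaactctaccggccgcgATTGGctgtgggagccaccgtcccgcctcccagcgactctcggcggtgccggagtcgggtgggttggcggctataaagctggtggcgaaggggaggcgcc
LSS: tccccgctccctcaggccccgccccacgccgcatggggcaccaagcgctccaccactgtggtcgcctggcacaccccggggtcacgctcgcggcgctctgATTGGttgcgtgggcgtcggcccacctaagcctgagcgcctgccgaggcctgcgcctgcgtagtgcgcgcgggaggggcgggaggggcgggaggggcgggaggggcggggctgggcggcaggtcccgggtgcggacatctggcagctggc
NSDHL: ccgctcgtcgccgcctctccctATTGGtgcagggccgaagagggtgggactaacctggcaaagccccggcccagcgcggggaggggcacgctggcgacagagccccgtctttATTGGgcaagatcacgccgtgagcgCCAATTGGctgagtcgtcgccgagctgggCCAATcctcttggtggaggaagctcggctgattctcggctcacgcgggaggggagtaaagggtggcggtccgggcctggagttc
CYP51A1: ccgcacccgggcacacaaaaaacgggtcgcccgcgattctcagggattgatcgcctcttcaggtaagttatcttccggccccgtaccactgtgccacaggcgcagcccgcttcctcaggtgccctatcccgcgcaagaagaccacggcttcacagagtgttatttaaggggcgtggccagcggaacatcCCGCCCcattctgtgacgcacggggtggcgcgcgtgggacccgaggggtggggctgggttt

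Treated and control cells were compared to see whether these transcripts changed with 72 h of IL-10. None of the 30 genes passed the threshold in limma (adjusted p of 0.98 or above), and neither did any of the 21946 genes tested (0%). In pairs 1 and 3 alone, with the replicate number as a block, 11 of 20308 genes passed in limma (0.0542%), none of them among the 30. At an unadjusted p under 0.05 stood 1 of the 30, CYP51A1, against 1.57% of all genes tested. The log2 fold changes ran from -0.37 to 0.64, with a median of 0.12, against a median of 0.02 over all genes tested. Of the 30, 21 were positive and 9 negative, and 52.0% of all genes tested were positive. The median log2 ratio within a pair was -0.04, 0.36 and 0.01 for pairs 1, 2 and 3. Over all tested genes with a mean value of 50 or more it was 0.005, 0.14 and -0.002. The 95% interval of the fold change lay within 2-fold in either direction for 25 of the 30, against 89.7% of the 11604 tested genes whose mean value was 50 or more (hereafter expressed genes). The other 5 were HMGCS1, STARD4, SREBF1, FASN and CYP51A1. In bulk RNA a lower level per cell and fewer expressing cells cannot be told apart.

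**Figure D1:**
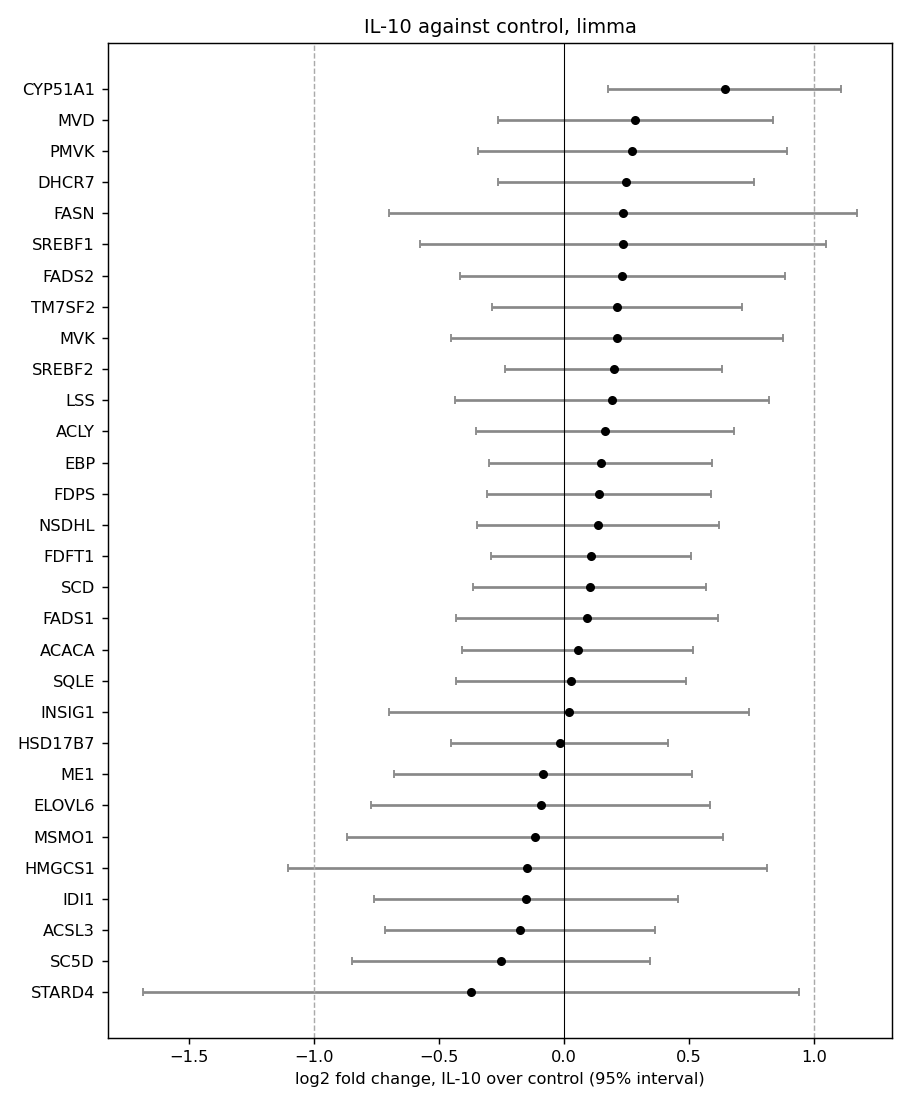
Log2 fold change of IL-10 over control (horizontal axis) for the 30 genes, ordered by value, with 95% intervals from limma over 3 IL-10 and 3 control libraries; dashed lines mark 2-fold. CYP51A1, at 0.64, is the gene whose interval (0.18 to 1.11) lies above 0, before adjustment, and the widest interval is that of STARD4.

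The regulators differed little between treatments within pairs 1 and 3. SREBF2, which encodes the SREBP that chiefly drives cholesterol synthesis, had 6433, 9004 and 6228 normalised reads in IL-10 replicates 1 to 3, against 6948, 5601 and 6128 in control replicates 1 to 3. The groups overlapped, with IL-10 replicate 2 highest. SREBF1, which encodes the SREBPs of fatty acid synthesis and of general sterol response, had 4392, 10133 and 3461 with IL-10, against 4664, 5365 and 3764 in control. Pair 2 gave a log2 ratio of 0.92, whereas pairs 1 and 3 gave -0.09 and -0.12. INSIG1, an SREBP target that retains the SREBPs in the membrane, had 3095, 1715 and 2192 with IL-10, against 3381, 1469 and 2240 in control. The replicate 1 libraries of both groups were highest for INSIG1 and the replicate 2 libraries lowest.

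Among the genes of the mevalonate and isoprenoid steps, HMGCS1, which makes HMG-CoA, had 4167, 1296 and 2608 with IL-10, against 4169, 1870 and 2445 in control. Its values in pair 1 were almost equal, and IL-10 replicate 2 was lowest. MVD, the mevalonate diphosphate decarboxylase, had 1327, 1854 and 1044 with IL-10, against 1412, 972 and 1032 in control, a log2 fold change of 0.29 (95% interval -0.26 to 0.84). FDPS, the farnesyl diphosphate synthase, had 1259, 1047 and 906 with IL-10, against 1184, 858 and 876 in control. The kinases MVK and PMVK had log2 fold changes of 0.21 and 0.27, and the isomerase gene IDI1 had -0.15. The groups overlapped for all 6 genes of these steps.

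In the squalene and sterol steps, SQLE, the squalene epoxidase, had 3585, 2996 and 2649 with IL-10, against 3828, 2627 and 2663 in control. Its log2 fold change was 0.03 (95% interval -0.43 to 0.49). DHCR7, which reduces the last intermediate to cholesterol, had 7323, 10369 and 5987 with IL-10, against 7681, 5942 and 5929 in control, with IL-10 replicate 2 highest. SC5D, the sterol C5-desaturase, had 481, 250.3 and 466 with IL-10, against 487, 405 and 481 in control, with IL-10 replicate 2 lowest. FDFT1, the squalene synthase, and the cyclase gene LSS had log2 fold changes of 0.11 and 0.19. For the later steps the values were 0.21 for the reductase gene TM7SF2, -0.12 for the methyl oxidase gene MSMO1, 0.14 for the dehydrogenase gene NSDHL, -0.02 for the ketoreductase gene HSD17B7 and 0.15 for the isomerase gene EBP. The groups overlapped for all 10 of these genes.

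CYP51A1, the lanosterol demethylase, was the exception among the 11 genes of these steps. It had 116, 102 and 103 normalised reads with IL-10, against 70.8, 68.6 and 64.9 in control. Every IL-10 library was above every control library, which held for 1 of the 30 genes, against 2.85% of all genes tested in that direction. No member had every IL-10 library below every control library, against 3.02% of all genes. The mean was 107 ± 8.13 with IL-10 and 68.1 ± 2.96 in control (SD, n = 3 each), a log2 fold change of 0.64 (SE 0.21, 95% interval 0.18 to 1.11, adjusted p = 0.98 in limma). Within pairs 1, 2 and 3 the log2 ratios were 0.71, 0.57 and 0.65. On 109, 87 and 108 reads with IL-10 and 76, 69 and 73 in control, the ratio was 1.65 (exact 95% interval 1.22 to 2.24), 1.49 (1.07 to 2.07) and 1.58 (1.16 to 2.16), intervals that cover counting error only.

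The level of CYP51A1 per length was among the lowest of the 30 genes, at 29.9 normalised reads per kilobase of exon with IL-10 and 19.0 in control. ME1 had 26.5 per kilobase with IL-10 and 28.2 in control. TM7SF2, whose product can act next in the pathway, had 188 with IL-10 and 167 in control. In GENCODE 29, CYP51A1 (ENSG00000001630, GRCh38 chromosome 7, 92112151 to 92134803, minus strand) shares 79.4% of its exon bases with another gene on the same strand, ENSG00000285772. ENSG00000285772 is not among the 27576 genes with deposited values, and whether the annotation used for counting held it is not given. The sources used here do not say how reads over shared bases were counted, so the values of CYP51A1 may hold only part of the gene's reads. Of the pseudogenes of CYP51A1, CYP51A1P1 and CYP51A1P2 had at most 1.90. The summed level of 5 airway secretory markers also separated the groups, at 79.1, 81.1 and 85.5 with IL-10, against 166, 204 and 205 in control, and none of the 5 was at 0 in any library. Its part in the difference of CYP51A1 was not tested.

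**Figure D2:**
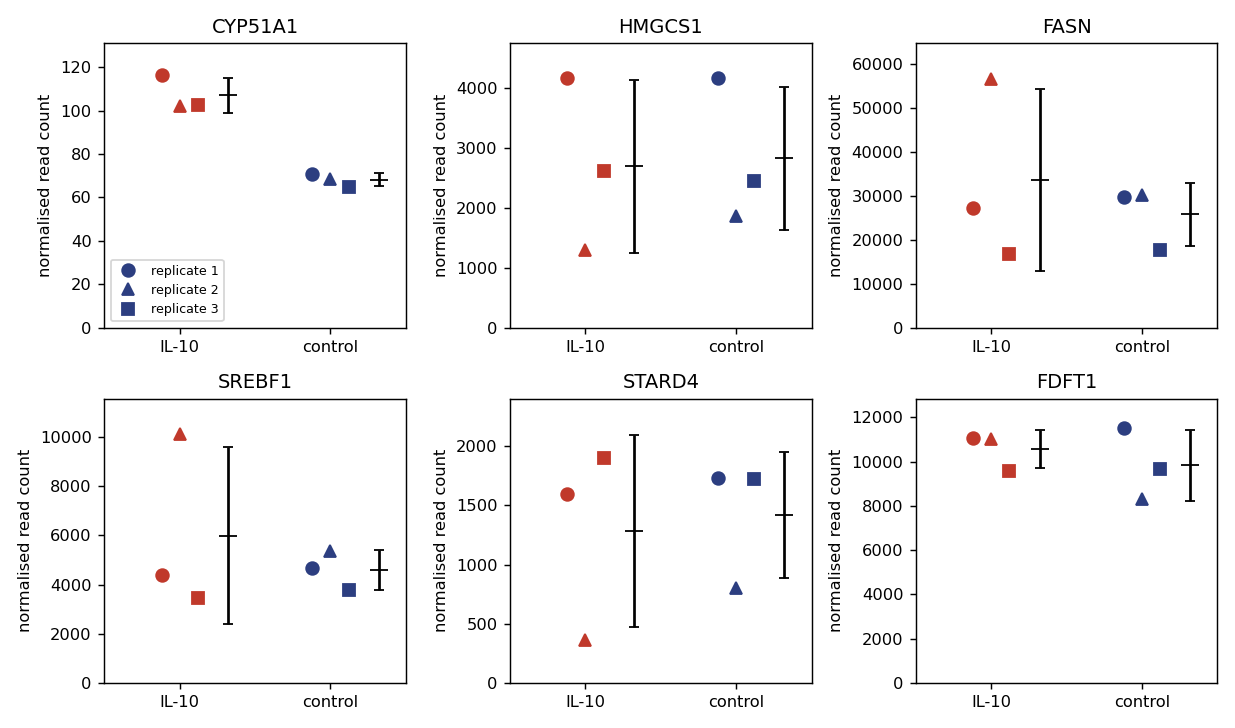
Normalised read count (vertical axis, from 0) of 6 genes in IL-10 and control libraries; symbols mark replicates 1 to 3, and the bar beside each group is the mean ± SD (n = 3). The groups of CYP51A1 do not overlap (102 to 116 with IL-10, 64.9 to 70.8 in control), while those of HMGCS1, FASN, SREBF1, STARD4 and FDFT1 do.

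STARD4, a sterol transfer protein and SREBP target, had 1596, 366 and 1899 with IL-10, against 1733, 803 and 1720 in control. Both replicate 2 libraries were low, IL-10 replicate 2 most of all. Its log2 fold change of -0.37 had a 95% interval of -1.68 to 0.94.

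Of the 9 fatty acid genes, ACLY, which makes cytosolic acetyl-CoA from citrate, had 13351, 18611 and 10563 with IL-10, against 13581, 12986 and 10567 in control. FASN, the fatty acid synthase, had 27201, 56588 and 16665 with IL-10, against 29602, 30117 and 17575 in control. FASN was the highest of the 30 per length, at 3576 normalised reads per kilobase with IL-10 and 2752 in control. SCD, which puts in the first double bond, had 8131, 6321 and 7030 with IL-10, against 8267, 5166 and 6815 in control. All 3 had groups that overlapped, and in pairs 1 and 3 their log2 ratios lay between -0.12 and 0.04.

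The desaturase genes FADS1 and FADS2 overlap on opposite strands of chromosome 11. FADS1 had 5998, 4485 and 4284 with IL-10, against 6175, 3598 and 4273 in control. FADS2 had 10976, 10429 and 6585 with IL-10, against 11534, 6275 and 6392 in control. Both were highest in the replicate 1 libraries. ACSL3, which activates fatty acids with coenzyme A, had 1135, 610 and 1010 with IL-10, against 1096, 984 and 934 in control. The malic enzyme gene ME1, a source of NADPH, was low, at 72.7, 108 and 87.4 with IL-10, against 70.8, 105 and 109 in control. ACACA, the acetyl-CoA carboxylase, had a log2 fold change of 0.06 and the elongase gene ELOVL6 -0.09, with groups that overlapped for both.

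**Figure D3:**
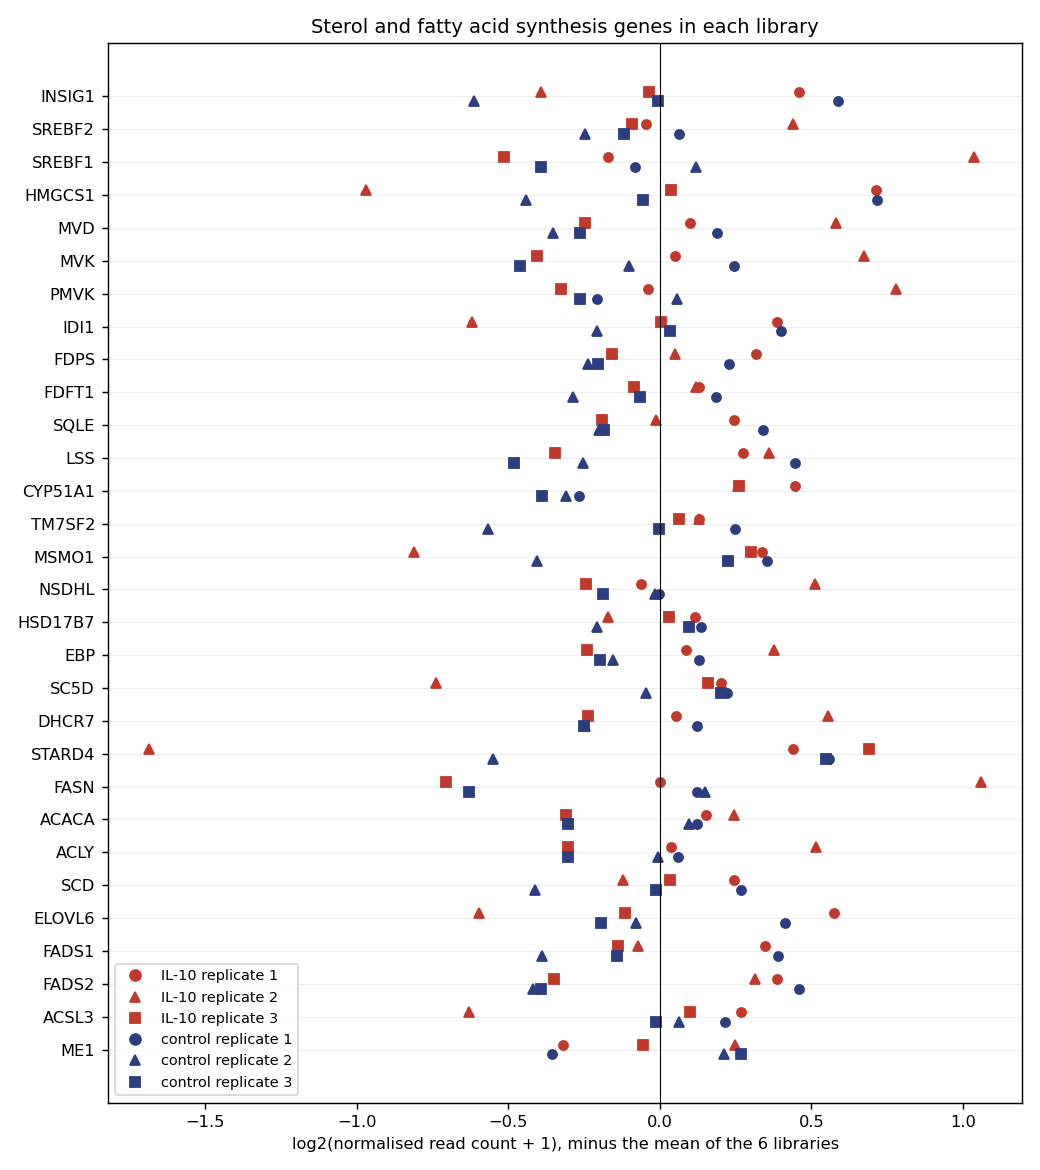
Log2(normalised read count + 1) of each gene in each library, minus the gene's mean over the 6 libraries (horizontal axis); red symbols are IL-10 and blue control, and circles, triangles and squares are replicates 1, 2 and 3. Circles lie to the right for most genes in both colours, and the red triangle is often at an end.

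The treatment ratio differed between the pairs. In pairs 1 and 3 the absolute log2 ratio was under 0.2 in both pairs for 28 of the 30 genes, against 79.7% of expressed genes. The exceptions were CYP51A1 and ME1. At 1.5-fold or more, 1 member was higher with IL-10 in pair 1 (background 0.233%) and 1 in pair 3 (0.302%), CYP51A1 each time. None was lower in pair 1 (0.379%) or pair 3 (0.112%). In pair 2, which holds IL-10 replicate 2, 10 members were higher by that much (21.8%) and 3 lower (13.3%).

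The direction in pair 2 followed the GC content of the transcript. The 10 members higher by 1.5-fold or more, among them MVD (log2 ratio 0.93), SREBF1 (0.92), FASN (0.91) and DHCR7 (0.80), had 57.1% to 65.3% GC. The 3 lower, STARD4 (-1.13), SC5D (-0.69) and ACSL3 (-0.69), had 34.2% to 38.6% GC. Across the 30 genes, whose ratios share the same pair of libraries, the Spearman rho of the pair 2 ratio with GC was 0.93, against 0.83 across the 11575 expressed genes with a GC value. In pairs 1 and 3 it was -0.46 and -0.22. The hepatocyte markers that were present in the replicate 2 libraries summed to less in IL-10 replicate 2 than in control replicate 2. The nuclear RNAs NEAT1 and MALAT1 summed to 5676 in IL-10 replicate 2 and 10270 in control replicate 2, against 16278 to 18975 in the replicate 1 and 3 libraries. The part of either in the pair 2 ratios was not tested.

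**Figure D4:**
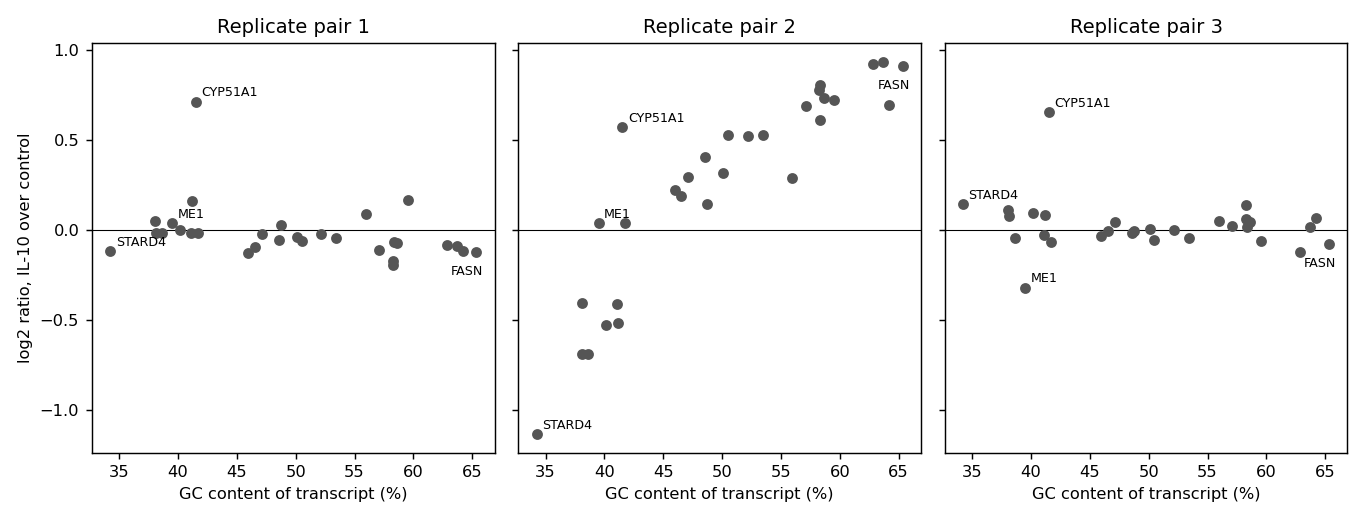
Log2 ratio of IL-10 over control within each replicate pair (vertical axis) against the GC content of the longest transcript (horizontal axis, %) for the 30 genes. In pair 2 the ratios climb from -1.13 (STARD4, 34.2% GC) to 0.91 (FASN, 65.3% GC), and in pairs 1 and 3 all but CYP51A1 and ME1 lie within 0.2 of 0.

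Most of the genes differed more between replicates 1 and 3 than between treatments within those pairs. For 21 of the 30, the absolute log2 ratio of these replicates was larger, in both groups, than that of the treatments in pair 1 and in pair 3. The matching share over all expressed genes was not computed, so this count cannot be called particular to these genes. In both groups, 28 of the 30 were higher in replicate 1 than in replicate 3, against 43% of expressed genes. The exceptions were ME1, lower in replicate 1 of both groups, and STARD4. The median ratio of replicate 1 over replicate 3 was 1.26 in IL-10 libraries and 1.27 in control libraries. With 1 library on each side in each group, these ratios describe the libraries and were not tested.

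Of the 30 genes, 5 were higher in replicate 1 by 1.5-fold or more in both groups, against 0.233% of expressed genes. LSS was 1.54-fold higher in IL-10 libraries and 1.90-fold in control libraries, at 3713, 3935 and 2415 normalised reads in IL-10 replicates 1 to 3 and 4183, 2575 and 2197 in control replicates 1 to 3. In IL-10 libraries HMGCS1 was 1.60-fold, FASN 1.63-fold, FADS2 1.67-fold and ELOVL6 1.61-fold higher. In control libraries HMGCS1 was 1.70-fold, FASN 1.68-fold, FADS2 1.80-fold and ELOVL6 1.52-fold higher. MVK (1.37-fold in IL-10 and 1.63-fold in control libraries) and INSIG1 (1.41-fold in IL-10 and 1.51-fold in control libraries) were under that limit in the IL-10 libraries. No member was lower by that much in both groups, against 1.34% of expressed genes. These 5 genes ranged from 40.2% to 65.3% in GC content, and over the 30 genes the Spearman rho of this ratio with GC was 0.37 in IL-10 and 0.40 in control libraries.

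**Figure D5:**
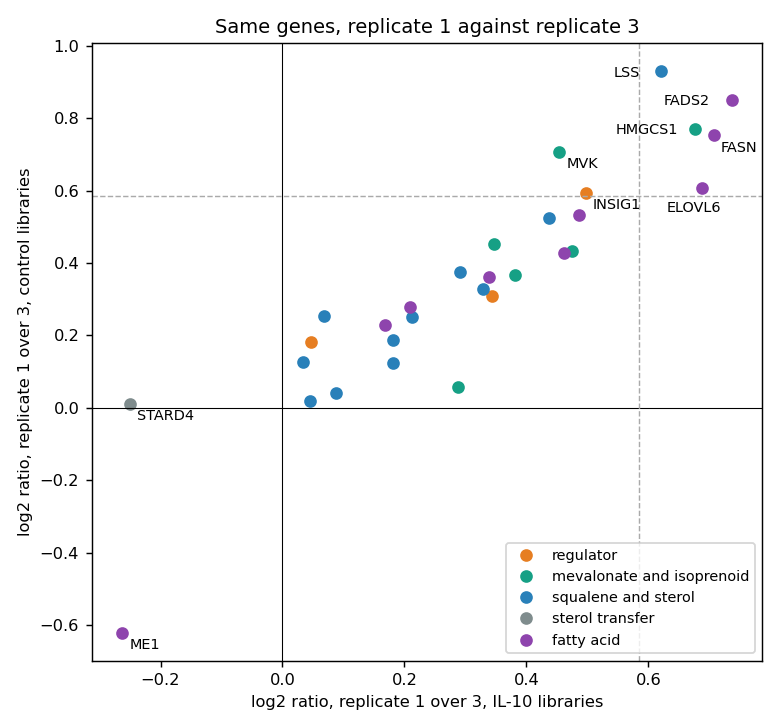
Log2 ratio of replicate 1 over replicate 3 in IL-10 libraries (horizontal axis) and control libraries (vertical axis) for the 30 genes, coloured by role; dashed lines mark 1.5-fold. LSS, FADS2, HMGCS1, FASN and ELOVL6 lie past both lines, and ME1 is alone below 0 on both axes.

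By role, the median log2 ratio of replicate 1 over replicate 3 was 0.46 in IL-10 and 0.43 in control libraries for the 9 fatty acid genes, and 0.42 and 0.44 for the 6 mevalonate and isoprenoid genes. It was 0.18 and 0.25 for the 11 squalene and sterol genes. For the 3 regulators the median was 0.34 in IL-10 and 0.31 in control libraries, with SREBF2 at 0.05 in IL-10 and 0.18 in control, SREBF1 at 0.34 in IL-10 and 0.31 in control, and INSIG1 at 0.50 in IL-10 and 0.59 in control. The summed level of 5 myeloid and line markers was 209800 in replicate 1 and 126940 in replicate 3 with IL-10. In control it was 223580 in replicate 1 and 126200 in replicate 3. Most of the sum was MPO, at 139390 in replicate 1 and 67839 in replicate 3 with IL-10, and 151850 and 66945 in control. KIT and CD33 were also higher in replicate 1 of both groups. CD34 was lower in replicate 1, at 11577 against 12547 with IL-10 and 11415 against 12612 in control. RUNX1T1 was nearly equal, at 3835 and 3874 with IL-10 and 3878 and 3840 in control. The part of these markers in the ratios was not tested. The same libraries differed little in hepatocyte markers, which summed to at most 9.79.

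Related genes of the pathway outside the 30 did not pass the threshold in either direction in any of 6 lists (limma). Over the SREBP processing genes, 6 of 10 had a positive log2 fold change, with a median of 0.04. SCAP, the SREBP escort, had 4490, 9211 and 4376 with IL-10, against 4722, 5164 and 4576 in control. UBE2G2, a ubiquitin-conjugating enzyme of the endoplasmic reticulum, averaged 4569 ± 604 with IL-10 and 4443 ± 527 in control. The median was -0.04 over 10 genes of the isoprenoid branch, with NUS1, a subunit of the dolichol-forming transferase, at 2235 ± 193 with IL-10 and 2383 ± 319 in control (SD, n = 3 each).

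For 11 genes of sterol transport and esterification the median log2 fold change was 0.07. SCARB1, the receptor for high-density lipoprotein, averaged 8367 ± 3886 with IL-10 and 6739 ± 1021 in control, and GRAMD1A, a sterol transporter, 4606 ± 1619 with IL-10 and 3711 ± 83.8 in control. For 6 genes of the oxysterol receptors (LXR) and their targets it was 0.14, with NR1H2, which encodes LXR-beta, at 1213 ± 494 with IL-10 and 932 ± 51.7 in control. IL-10 replicate 2 was highest for SCARB1, GRAMD1A and NR1H2, with IL-10 over control ratios of 1.65, 1.78 and 1.94 in pair 2. In pairs 1 and 3 these ratios lay between 0.96 and 1.02. MYLIP, which targets lipoprotein receptors for degradation, averaged 554 ± 41.8 with IL-10 and 554 ± 37.8 in control. For 18 other fatty acid synthesis genes the median log2 fold change was 0.08, and the elongase gene ELOVL5 averaged 4164 ± 63.01 with IL-10 and 4078 ± 35.2 in control. The dehydratase gene HACD3 averaged 3447 ± 225 with IL-10 and 3588 ± 428 in control. For 16 fatty acid oxidation genes it was 0.10, with HADHA, of the mitochondrial trifunctional protein, at 6832 ± 699 with IL-10 and 6364 ± 127 in control. ETFA, an electron carrier subunit, averaged 6587 ± 197 with IL-10 and 6572 ± 217 in control. The median log2 ratio of replicate 1 over replicate 3 in these 6 lists lay between -0.07 and 0.09 in IL-10 libraries and between -0.13 and 0.07 in control libraries. For the 30 genes it was 0.33 and 0.34, and for all expressed genes 0.03 and 0.02.

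The annotation limits some values. Whether strand was used in counting is not known from the sources used here, so reads of genes that overlap on opposite strands cannot be told apart. FDPS shares 18.6% of its exon bases with RUSC1-AS1, IDI1 14.8% with IDI2-AS1 and HMGCS1 14.95% with ENSG00000261604. FADS1 shares 4.79% with FADS2, which is also among the 30 genes. HSD17B7 has a near copy, HSD17B7P2, at 91.9, 59.9 and 89.3 with IL-10 and 98.8, 68.6 and 83.6 in control, beside 255, 209 and 240.3 with IL-10 and 259, 204 and 252 in control for HSD17B7 itself.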

How the data were processed

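Libraries came from Trizol-extracted RNA and an Illumina TruSeq kit, per the labels' protocols. Although the file is called FPKM, the values the authors deposited are a signal, namely each library's reads over its own size factor (0.851 to 1.12), as the numbers themselves show. In each library 100% were whole multiples of 1 step within 0.01 read. Builds GRCh38 and hg38 and the tool edgeR 3.18.1 appear in the submitters' processing notes, where no role is stated. Aligner, counter and strand setting: not given in the sources used here.

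Libraries were grouped by their titles. Symbols were matched by Ensembl ID (26883 of 27576 IDs), and coordinates, exon lengths and GC content (longest transcript) come from GENCODE 29. The main test was limma-trend (limma 3.58.1 under R 4.3.3) on log2(value + 1), two-sided, over the genes that reached 1 in 3 or more libraries, with Benjamini-Hochberg adjustment over all genes and a threshold of 0.05. Fold changes on this scale understate those of low genes. As alternatives, the quasi-likelihood test of edgeR 4.0.16 and DESeq2 1.42.0 were run on recovered reads. The limma and edgeR fits without a block were tested on simulated data that held no outlying library. For pairing, deviations from the group mean were correlated between same-numbered libraries of both groups (11605 genes of mean 50 or more). The correlation was 0.37, 0.605 and 0.73 for libraries 1, 2 and 3, and ratios were therefore formed within replicate numbers. The main fit held no replicate term, so its p-values and intervals are unpaired. The replicate block was an alternative fit. All 30 genes are named. Values in every library are given for a fixed set of them, for the 3 of smallest p in each direction and for those whose groups did not overlap, and of each related list the 2 genes of highest mean, of which 1 is not reported here. LSS was added because of its values. The genes, lists and motifs were chosen with earlier results of these data known.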

Additional observations from a re-analysis of the deposited data

How the results depend on the processing

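No gene of the 30 and none of the 6 related lists passed the threshold in limma or in any of 21 alternatives. Over all genes the count was 0 in limma (344 at an unadjusted p under 0.05), 0 in edgeR (80), 0 in DESeq2 (80) and 0 with the replicate block (512), and 0 when leaving out any library. Blocking on the replicate number in pairs 1 and 3 alone gave 11, from 4 libraries with 1 degree of freedom left, against 0 in the same libraries unblocked; the cause was not tested. In the fit of all 6 libraries the replicate block changed no call. The median log2 fold change of the 30 genes, 0.12, was 0.0309 to 0.245 when leaving out each library in turn, 0.0224 with equal totals, 0.0029 with quantile normalization, 0.0092 with sample weights, and -0.0246 in pairs 1 and 3 alone, blocked or not (the unblocked fit was chosen after seeing the data). Equal totals moved the median of all genes to -0.08. Of 630 values of single members under an alternative, 106 changed sign, none of them called in any fit. FDPS and CYP51A1 changed sign in none, and CYP51A1 lay between 0.54 and 0.71 (adjusted p 0.14 to 1). Depth limits CYP51A1 and ME1 most, the members of lowest count.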

Other observations

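The 27 genes with a mean of at least 50 that were higher in replicate 1 than in replicate 3 by 1.5-fold or more in both groups held, beside the 5 sterol and fatty acid genes, 5 genes of neutrophil and eosinophil granules. They were chosen after their values were seen. ELANE, the neutrophil elastase gene, was 9.35-fold higher in IL-10 and 8.73-fold in control libraries, and PRTN3, which encodes proteinase 3, 6.77-fold and 6.92-fold. AZU1, which encodes azurocidin, was 1.997-fold and 2.147-fold higher, MPO, the myeloperoxidase gene, 2.05-fold and 2.27-fold, and RNASE2, an eosinophil granule ribonuclease, 1.70-fold and 1.73-fold. PIM1, a kinase gene that responds to cytokines, was 1.97-fold and 1.99-fold higher. In IL-10 replicates 1 to 3 ELANE stood at 159, 4.70 and 16.1, against 140, 8.95 and 15.1 in control replicates 1 to 3. Only its replicate 1 values were above 50, so ELANE passed the limit on the mean through the libraries in which it was higher.

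CPT2 and ABCA1, of the related lists, had groups that did not overlap, and were named after their values were seen. They are 1 gene higher and 1 lower with IL-10, and over all genes tested 2.85% and 3.02% had such groups in these directions. CPT2, of mitochondrial fatty acid import, had 202, 229 and 192 with IL-10, against 177, 164 and 173 in control (unadjusted p = 0.17 in limma). ABCA1, a sterol exporter, had 3.21, 4.70 and 3.80 with IL-10, against 5.59, 12.9 and 8.01 in control (unadjusted p = 0.059), close to the floor of 3 reads per library.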
